A study of Mus musculus with 40 samples.

Results

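Brown adipose tissue, the heat-producing fat of the mouse, was profiled here in 15 of the 40 mice of the series, chosen by sample title as those given a control antibody and no thyroid hormone: 5 mice 15 h after the dose, 5 mice at 5 d and 5 mice at 7 d. All 15 were male C57BL/6 mice given 1 intraperitoneal dose of 40 mg/kg of a control antibody of matched isotype, directed against the plant antigen ragweed, in PBS. The series text gives their age as 10 to 12 weeks and the treatment protocol as 10 to 14 weeks. No mouse without an antibody was analysed here, so the 15 h group is the earliest point and not an untreated one. The values compared are gene counts from bulk RNA sequencing, 5 d against 15 h and 7 d against 5 d, with 7 d against 15 h given as the net difference. These comparisons share mice, so they are not independent of each other. The labels used here give neither the day nor the hour of collection, and time after the dose cannot be told apart from a collection batch or from the hour of day. Beside them stand 15 mice collected at the same times after 20 mg/kg each of antibodies that block the Notch ligands Jag1 and Jag2 (called Jag antibody mice).

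Brown fat burns fatty acids in its mitochondria and releases the energy as heat through the uncoupling protein Ucp1, and it makes much of its fuel itself from glucose through the enzymes of fatty acid synthesis. Its stroma holds fibroblasts that lay down collagen, macrophages, vessels and nerves. Type I interferon switches on a battery of antiviral genes through a short DNA element in their promoters. Immediate early genes such as Fos and Egr2 are transcribed within minutes of a signal and decay fast.

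Libraries held 12217623 counts (7 d mouse 4) to 36511893 counts (5 d mouse 4). Levels are given as log2 CPM (CPM is the count scaled to library size, here after TMM scaling and with a prior count of 2), for mice 1 to 5 of each group in that order. Ucp1 is among the most abundant messages of a brown adipocyte, and its mean log2 CPM was 10.88 ± 1.15 at 15 h, 11.91 ± 0.69 at 5 d and 13.69 ± 0.66 at 7 d (SD, n = 5 each). All 10 brown adipocyte markers passed the filter on low counts. Of the 5 white adipocyte markers, Hoxc9 and Hoxc10 did not pass it. Skeletal muscle RNA varied widely. The mean log2 CPM of 8 muscle genes (the muscle score) was -1.57, -1.51, -1.82, 7.11 and 10.23 at 15 h, 8.26, 5.10, 11.26, 11.19 and 13.71 at 5 d, and -1.31, 1.26, -1.02, 7.19 and 11.07 at 7 d. It was thus high in every 5 d mouse, and the fit with this score as a covariate is quoted beside the gene groups below. The myeloid score is the mean log2 CPM of 10 leukocyte genes. These include every neutrophil and monocyte marker used below except Retnlg, and the macrophage markers Adgre1, Cd68 and Lyz2. In 15 h mice 2 and 3 this score was 8.61 and 6.67, against 1.15 to 4.25 in the other 13 mice. Comparisons with the 15 h group were therefore also fitted without those mice, and of 144 named genes called at 5 d, 56 were still called in the same direction there. Mitochondrial transcripts made up 23.5 ± 2.79% of counts at 15 h, 13.8 ± 2.46% at 5 d and 20.0 ± 4.05% at 7 d (SD, n = 5). The 5 d share differed from both others without overlap of the mice (exact two-sided permutation test, p = 0.00794, the smallest that 5 against 5 allow, and 0.0357 adjusted over 18 tests). The TMM factor and the length slope also separated 7 d from 15 h in the same way, with the same p and adjusted p. The factor was 0.799 ± 0.124 at 7 d and 1.11 ± 0.116 at 15 h, and the slope, that of a library's log2 levels relative to the mean of all libraries on log2 exonic length, was -0.226 ± 0.199 and 0.104 ± 0.0474 (SD, n = 5). At 5 d these were 0.989 ± 0.174 and -0.14 ± 0.274. Length and GC offsets were run as an alternative.

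At 5 d against 15 h, genes of the interferon response, of neutrophils and monocytes, and of inflammation were lower, and genes of collagen matrix, red blood cells, glycolysis and fatty acid synthesis were higher. Of 17079 genes tested, 6214 (36.4%) passed an adjusted p of 0.05 (called): 2773 (16.2%) were higher at 5 d and 3441 (20.1%) lower, with a median log2 fold change over all genes of -0.01. The balance of directions was not stable: 53.6% of calls were higher without the filter on low counts and 52.2% without 15 h mouse 1 or without 15 h mouse 4, against 44.6% here. The test was edgeR's quasi-likelihood F test over all 40 libraries with Benjamini-Hochberg adjustment. These calls rest on the spread pooled over the 8 groups: with the 10 mice of this comparison alone no gene was called, although 5270 had an unadjusted p under 0.05, and edgeR on the 15 control mice called 1863, or 3 with the muscle score as well. The fit without 15 h mice 2 and 3 called 1979 genes (11.6%), and that with the muscle score as a covariate 4239 (24.8%). With length and GC offsets 4589 were called, and 3175 of the 6214 were among them in the same direction. The 15 h and 5 d mice did not overlap in 1771 genes (10.4%), of which 526 (3.08%) were higher and 1245 (7.29%) lower at 5 d.

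The interferon response list holds 18 genes, and 14 were lower at 5 d and 1 was higher, with a median of -2.01 against -0.01 over all genes. Mx1 and the Ifit family, antiviral proteins that bind viral particles or foreign RNA, changed most. Ifit1 (ENSMUSG00000034459, chr19:34640871-34650009 on GRCm38, GENCODE M21) had log2 CPM of 3.94, 7.51, 7.64, 4.02 and 4.78 at 15 h, 3.09, 1.49, 3.61, 4.45 and 1.48 at 5 d, and 2.76, 2.08, 2.45, 2.94 and 2.66 at 7 d. Mice 2 and 3 were far above the other 15 h mice, and 5 d mouse 4 lay within the 15 h range. Its log2 fold change at 5 d was -3.19 ± 0.81 (SE; 9.13-fold, edgeR adjusted p = 0.00341). Mx1 read 1.81, 6.48, 7.18, 1.59 and 3.18 at 15 h and 1.43, 0.18, 2.12, 1.48 and 1.08 at 5 d, again with 15 h mice 2 and 3 at the top and a change of -4.29 ± 0.93 (SE; 19.6-fold, edgeR adjusted p = 0.00105). Ifit3 (-2.95), Oasl2 (-2.73), Isg15 (-2.67) and Rsad2 (-2.57) were also called. Of the 14 genes that fell, 2 (Ifi44 and Gbp3) had no overlap between the groups, against 7.29% of all genes. None of the 14 was called without 15 h mice 2 and 3 (6.59% of all genes were called lower in that fit), the list's median was -0.57 and the value for Ifit1 was -1.02 (edgeR adjusted p = 0.352). With the muscle score as a covariate 9 were called lower (13.6% of all genes). Ifit2 and the interferon-inducible genes Trim30a, Ddx60 and Slfn9, which the naming rule picked from outside the list, fell by 3.04, 2.75, 2.62 and 2.46 on the log2 scale with all mice, and their adjusted p without mice 2 and 3 was 0.168, 0.204, 0.0811 and 0.118 (edgeR).

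Ifi27l2a, an interferon-inducible gene, went the other way. Its log2 CPM was 8.46, 8.35, 8.48, 8.37 and 8.54 at 15 h, 9.26, 10.46, 9.93, 8.75 and 11.70 at 5 d, and 9.75, 9.84, 8.51, 11.09 and 9.17 at 7 d. The 15 h mice were nearly level and every 5 d mouse was above them. The change was 1.96 ± 0.49 (SE; 3.89-fold, edgeR adjusted p = 0.00297), and it stayed at 1.95 (edgeR adjusted p = 0.0352) without 15 h mice 2 and 3.

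The promoters of 4 genes that fell together are shown with the letters of the interferon element marked. Each line gives the 250 bases before the RefSeq start on GRCm38.p6, 5′ to 3′ on the gene's strand, with matches in capitals to GAAA, any 2 bases and GAAA again, on either strand. They lie at chr19:34640639-34640888 (Ifit1, plus strand, 2 matches), chr19:34583279-34583528 (Ifit3, plus strand, 2 matches), chr4:156200819-156201068 (Isg15, minus strand, 3 matches that overlap each other) and chr12:26456453-26456702 (Rsad2, minus strand, 1 match).
Ifit1: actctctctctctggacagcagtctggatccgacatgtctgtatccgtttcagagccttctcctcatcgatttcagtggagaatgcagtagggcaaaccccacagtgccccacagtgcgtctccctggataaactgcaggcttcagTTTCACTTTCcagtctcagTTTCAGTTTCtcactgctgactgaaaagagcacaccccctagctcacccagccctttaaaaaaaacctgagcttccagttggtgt
Ifit3: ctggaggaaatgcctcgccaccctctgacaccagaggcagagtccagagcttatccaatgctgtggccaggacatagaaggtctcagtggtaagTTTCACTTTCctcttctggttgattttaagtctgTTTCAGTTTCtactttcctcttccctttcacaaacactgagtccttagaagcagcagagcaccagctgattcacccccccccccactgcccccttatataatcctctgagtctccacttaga
Isg15: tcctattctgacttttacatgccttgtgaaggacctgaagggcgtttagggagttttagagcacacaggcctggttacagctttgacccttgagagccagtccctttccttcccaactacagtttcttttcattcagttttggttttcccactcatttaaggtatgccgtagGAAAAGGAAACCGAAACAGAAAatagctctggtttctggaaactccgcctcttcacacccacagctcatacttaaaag
Rsad2: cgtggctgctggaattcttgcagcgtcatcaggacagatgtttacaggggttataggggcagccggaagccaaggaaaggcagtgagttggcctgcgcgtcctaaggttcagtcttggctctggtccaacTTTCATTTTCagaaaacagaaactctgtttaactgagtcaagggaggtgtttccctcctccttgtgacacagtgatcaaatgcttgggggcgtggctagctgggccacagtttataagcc
A RefSeq promoter was found for 14 of the 18 genes, and 10 of the 14 held the motif (Ifit1, Ifit3, Isg15, Oas1a, Stat2, Rsad2, Bst2, Gbp2, Gbp3 and Igtp), against 3.46% of 27025 genes with a promoter. Bst2 and Igtp held it and were not called at 5 d, while Irf7, Oasl2, Ifi44 and Irf1 did not hold it in this window and were called lower.

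Neutrophil and monocyte genes and several cytokines were lower as well. All 7 neutrophil and monocyte markers were lower at 5 d (median -5.94), led by the neutrophil chemokine receptor Cxcr2 (-9.81). Their mean log2 CPM was 0.26, 8.31, 5.19, 1.21 and 2.42 at 15 h, -0.20 to 1.32 at 5 d and -0.98 to 1.29 at 7 d, so 15 h mice 2 and 3 were above every other mouse and 15 h mice 1 and 4 lay within the later ranges. In bulk tissue, fewer cells of a type and less RNA per cell cannot be told apart. The myeloid score that singled out 15 h mice 2 and 3 holds all 7 markers but Retnlg. The high level of this list in those mice, and its loss of calls without them, therefore follow in part from that choice. Only Ccr2, the receptor that brings monocytes into tissue, was called among the 7 without 15 h mice 2 and 3, at -1.41 (edgeR adjusted p = 0.0379), and 6 were called with the muscle covariate. Macrophage markers were split, with Cd68 (-1.68) and Lyz2 (-1.53) lower and the complement genes C1qa (1.43) and C1qc (1.71) higher among 8 (median -0.13). These shares are near the 20.1% of all genes called lower and the 16.2% called higher. Without those mice none of the 4 was called: Cd68 was at 0.17, Lyz2 at 0.22, C1qa at 1.48 (edgeR adjusted p = 0.108) and C1qc at 1.81 (edgeR adjusted p = 0.0525). Cd68 and Lyz2 were called lower with the muscle covariate, where C1qa was at 0.66 (edgeR adjusted p = 0.343) and C1qc at 0.97 (edgeR adjusted p = 0.146). None of 8 B and T lymphocyte markers was called in any of these fits.

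Ccl2 and Ccl7, the ligands of Ccr2, had the largest falls among genes whose 15 h and 5 d mice did not overlap and whose mean level passed the naming rule. Ccl2 (ENSMUSG00000035385, chr11:82035571-82037453) had log2 CPM of 3.88, 9.42, 8.89, 3.36 and 5.78 at 15 h, 1.17, 1.12, 0.97, 1.19 and 3.30 at 5 d, and 3.84, 1.54, 0.76, 3.54 and 0.66 at 7 d. The lowest 15 h mouse was just above the highest 5 d mouse, mouse 5, and the change was -6.15 ± 1.11 (SE; 71.2-fold, edgeR adjusted p = 0.000254). Ccl7 changed by -6.67 ± 1.16 (SE; 101-fold, edgeR adjusted p = 0.000212). Both were still lower without 15 h mice 2 and 3, Ccl2 at -2.93 (edgeR adjusted p = 0.0297) and Ccl7 at -3.03 (edgeR adjusted p = 0.0266). Msr1, a macrophage scavenger receptor for modified lipoproteins, read 2.52, 8.36, 7.63, 2.77 and 4.90 at 15 h, 2.20, 0.54, 1.69, 1.81 and 2.04 at 5 d, and 0.85, 0.50, 1.14, 0.69 and -0.21 at 7 d. Every 15 h mouse was above every 5 d mouse, by a little in mice 1 and 4 and by far in mice 2 and 3. It changed by -5.12 ± 0.79 (SE; 34.7-fold, edgeR adjusted p = 8.72e-05), and by -2.09 (edgeR adjusted p = 0.0138) without those mice. Il1rn, the natural antagonist of interleukin 1, Plek, a leukocyte signalling protein, and Tlr4, the receptor for bacterial lipopolysaccharide, fell by 5.52, 4.97 and 2.53, and by 1.83, 1.67 and 1.39 without those mice, and were called in both fits. Lair1, an inhibitory collagen receptor of leukocytes, fell by 2.51 and was not called without those mice (edgeR adjusted p = 0.137).

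The acute phase and inflammation list gave 8 lower and 1 higher of 14 genes (median -1.25), against 20.1% of all genes lower and 16.2% higher. Tnf, the inflammatory cytokine, had log2 CPM of 0.48, 4.75, 3.62, 0.17 and 1.71 at 15 h and -2.21, -0.65, -1.72, -1.69 and -0.74 at 5 d. The groups did not overlap, and the change was -4.88 ± 0.86 (SE; 29.4-fold, edgeR adjusted p = 0.000212), or -2.59 (edgeR adjusted p = 0.0266) without 15 h mice 2 and 3. Hp, haptoglobin, which binds free hemoglobin and is secreted by fat, read 11.55, 12.60, 12.77, 10.93 and 11.79 at 15 h and 10.20, 10.81, 10.50, 10.43 and 11.25 at 5 d. Its groups overlapped at 15 h mouse 4 and 5 d mouse 5, with a change of -1.40 ± 0.31 (SE; 2.63-fold, edgeR adjusted p = 0.00116), or -0.78 (edgeR adjusted p = 0.0864) without 15 h mice 2 and 3. Il1b (-6.44), Cxcl1 (-5.87) and Lcn2 (-4.99) were the other large falls, and Orm1, an acute phase glycoprotein, rose by 0.82. Without 15 h mice 2 and 3 the called genes of the list were Ccl2, Cxcl1 and Tnf, all lower, and the median was -0.35. Of the 14, 6 were lower and 1 was higher with the muscle covariate. The neutrophil and monocyte markers, most of them part of the score that singled out 15 h mice 2 and 3, were highest in those mice. Their part in the result was not tested beyond leaving those mice out.

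Immediate early genes were lower at 5 d in 10 of 17 cases (median -1.63), against 20.1% of all genes. Without 15 h mice 2 and 3, 7 were called lower (6.59% of all genes) and with the muscle covariate 9 (13.6% of all genes). In the fit of the 15 control mice 2 were called lower, against 1045 of 15840 genes. Zfp36, which binds and destabilises cytokine messages, had log2 CPM of 5.68, 7.44, 7.13, 7.20 and 7.17 at 15 h, 5.49, 4.81, 5.03, 4.84 and 4.98 at 5 d, and 7.67, 5.67, 4.89, 5.53 and 5.50 at 7 d. All 15 h mice were above all 5 d mice, though 15 h mouse 1 was barely so. The change was -1.98 ± 0.35 (SE; 3.95-fold, edgeR adjusted p = 0.000219), and -1.77 (edgeR adjusted p = 0.00624) without 15 h mice 2 and 3. Fos read 2.88, 4.97, 4.80, 6.68 and 6.30 at 15 h, 4.10, 0.71, 2.74, 2.58 and 2.58 at 5 d, and 8.08, 4.87, 1.28, 3.39 and 5.13 at 7 d, with 15 h mouse 1 within the 5 d range and a change of -2.74 ± 0.81 (SE; 6.66-fold, edgeR adjusted p = 0.00988), or -3.07 (edgeR adjusted p = 0.0272) without those mice. Myc, a growth-related transcription factor that decays fast, read 3.25, 4.69, 4.59, 4.30 and 4.18 at 15 h, 2.27, 2.04, 2.96, 2.77 and 2.68 at 5 d, and 4.23, 2.22, 1.99, 1.46 and 2.02 at 7 d. Its 15 h and 5 d mice did not overlap, and it fell by 1.71 on the log2 scale (edgeR adjusted p = 0.000697, and 0.0217 without those mice). Egr3 (-2.5), Egr2 (-2.35) and Egr1 (-2.27) fell as well, and of the 3 Egr2 was not called without those mice (edgeR adjusted p = 0.0808).

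Many immediate early genes carry an element bound by the cAMP-responsive factor Creb1. The promoters of 2 members are shown in the same form, with matches to TGACGNCA on either strand in capitals, at chr12:85473640-85473889 (Fos, plus strand, match beginning 129 bases before the start) and chr10:67537619-67537868 (Egr2, plus strand, 111 bases before the start; 3 of its 5 listed starts have a match).
Fos: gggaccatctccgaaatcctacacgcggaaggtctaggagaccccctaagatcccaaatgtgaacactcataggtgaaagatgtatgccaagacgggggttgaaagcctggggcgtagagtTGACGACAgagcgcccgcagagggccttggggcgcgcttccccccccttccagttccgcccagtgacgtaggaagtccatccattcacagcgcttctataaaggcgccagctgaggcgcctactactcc
Egr2: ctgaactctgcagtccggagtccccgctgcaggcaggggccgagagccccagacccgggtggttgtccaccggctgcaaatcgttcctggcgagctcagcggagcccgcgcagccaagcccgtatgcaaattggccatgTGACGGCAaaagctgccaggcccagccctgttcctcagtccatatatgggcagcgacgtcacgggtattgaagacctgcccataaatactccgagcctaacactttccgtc
The marked stretches, TGACGACA in Fos and TGACGGCA in Egr2, are neither of the Creb1 forms. TGACGT itself stands unmarked in both sequences, on the opposite strand in Egr2. The searched pattern was in 5 of 13 list genes with a promoter (Fos, Egr2, Nr4a3, Btg2 and Klf4) and in 3.16% of all genes. CACGTG, the element of clock factors, was in 4 of 10 clock repressor and output genes (6.86% of all genes). TCACNCCAC, a sterol-response element, was in 1 of 15 cholesterol synthesis genes, Hmgcs1 (1.22% of all genes). No match of these 4 motifs in a list gene overlapped a match of another of them. A match is a description of the letters and not a measured site.

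The list of ER (endoplasmic reticulum) and integrated stress genes gave 3 lower of 12 at 5 d, near the 20.1% of all genes. One of these, Hsp90b1, which folds secreted proteins, read 8.42, 9.22, 9.14, 8.36 and 8.44 at 15 h, 7.82, 7.10, 7.70, 7.59 and 7.60 at 5 d, and 8.09, 8.05, 8.0, 7.29 and 7.83 at 7 d. Every 15 h mouse was above every 5 d mouse, and the change was -1.19 ± 0.17 (SE; 2.28-fold, edgeR adjusted p = 4.77e-05). It was -0.82 (edgeR adjusted p = 0.00443) without 15 h mice 2 and 3. With Pdia4 (-1.01) and Hspa5 (-0.69) it made up the 3, while Herpud1 (0.61) was higher and the median was -0.20. Pdia4, Hspa5 and Herpud1 were not called without 15 h mice 2 and 3 (edgeR adjusted p = 0.165, 0.229 and 0.109), and with the muscle covariate the list again had 3 lower and 1 higher. The heat shock and cold inducible list gave 2 lower and 1 higher of 11 (median 0.12), a share of lower genes also near that of all genes. Hsp90aa1 changed by -1.48, Rbm3, a cold-induced RNA-binding protein, by -0.97 and the mitochondrial chaperonin Hspe1 by 1.04. Of these 3, Hsp90aa1 alone was called without 15 h mice 2 and 3, and Hspe1 was not called with the muscle covariate (edgeR adjusted p = 0.065). Gm44321, an uncharacterised transcript, read 2.58, 2.91, 2.95, 3.68 and 3.32 at 15 h and 1.32, -2.42, -0.97, 0.99 and -0.10 at 5 d. It fell by 2.91 with no overlap of the groups, and without 15 h mice 2 and 3 its change was -3.03 (edgeR adjusted p = 0.00302).

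**Figure D1:**
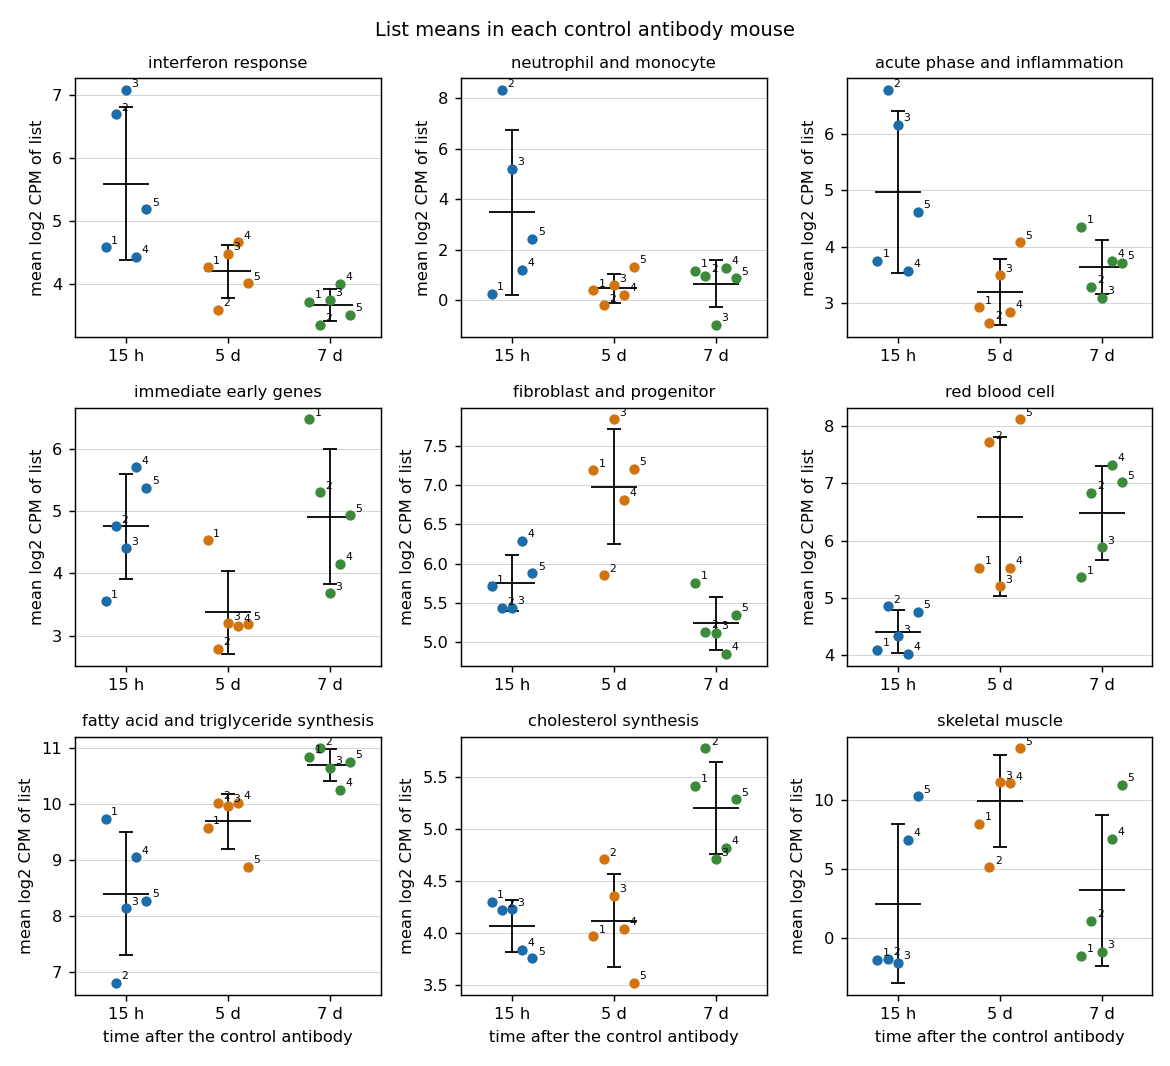
Mean log2 CPM of the tested genes of 9 gene lists in each control antibody mouse at 15 h, 5 d and 7 d. Points are mice, numbered 1 to 5 within a group, bars are the mean ± SD (n = 5). In the interferon and the neutrophil and monocyte panels 15 h mice 2 and 3 lie above all other mice, and in the red blood cell panel all 5 d and 7 d mice lie above all 15 h mice.

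Genes of the connective tissue matrix were higher at 5 d than at 15 h. Of 8 fibroblast and progenitor markers 6 were higher and none lower (median 1.18), led by Col1a1, Col1a2 (2.59) and Col3a1 (2.05), the chains of fibrillar collagen. Col1a1 (ENSMUSG00000001506, chr11:94936224-94953042) had log2 CPM of 5.78, 4.92, 5.07, 6.47 and 6.36 at 15 h, 8.42, 6.67, 9.89, 7.98 and 8.42 at 5 d, and 6.13, 5.64, 6.14, 6.16 and 6.10 at 7 d. Each 5 d mouse was above each 15 h mouse, with 5 d mouse 2 close to the 15 h range and 5 d mouse 3 highest. The change was 2.78 ± 0.43 (SE; 6.86-fold, edgeR adjusted p = 7.84e-05). Mmp2, an enzyme that cuts collagen, read 4.58, 3.66, 3.41, 5.12 and 4.39 at 15 h, 6.75, 6.01, 7.93, 6.38 and 6.99 at 5 d, and 5.47, 4.99, 5.23, 6.21 and 5.22 at 7 d. Its groups did not overlap either, and it changed by 2.61 ± 0.36 (SE; 6.1-fold, edgeR adjusted p = 2.80e-05), or 2.25 (edgeR adjusted p = 0.0026) without 15 h mice 2 and 3. The naming rule picked further extracellular proteins: Mfap2 (3.50), a component of microfibrils, Clec3b (2.93), a plasminogen-binding protein, Fbln7 (2.88), a fibulin, Col6a6 (2.69) and Islr (2.48). Car14 (2.5), a membrane carbonic anhydrase, and the RNA gene Mir6236 (2.80) completed it. The muscle score was 9.90 ± 3.31 at 5 d against 2.49 ± 5.75 at 15 h (SD, n = 5, exact permutation p = 0.0556). With the score as a covariate 3 of the 8 markers were called higher (11.2% of all genes), the 3 collagen chains, and Col1a1 was at 2.37 (edgeR adjusted p = 0.00088). Without 15 h mice 2 and 3 the same count was 3 (4.99% of all genes), with Col1a1 at 2.41 (edgeR adjusted p = 0.00449).

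Red blood cell messages were higher at 5 d. All 5 genes, the globins Hba-a1, Hba-a2, Hbb-bs and Hbb-bt and the heme synthesis enzyme Alas2, were called higher at 5 d (median 2.54), and all 5 again with the muscle covariate, without 15 h mice 2 and 3, and in the fit of the 15 control mice. With length and GC offsets all 5 were called too, but the median was smaller, at 1.73. Hbb-bt, an adult beta globin, had log2 CPM of 4.48, 4.44, 4.33, 4.21 and 4.87 at 15 h, 5.83, 7.81, 5.05, 5.61 and 8.16 at 5 d, and 5.68, 7.06, 5.93, 7.40 and 7.20 at 7 d. The 15 h mice lay close together and below every later mouse, and 5 d mice 2 and 5 were highest. The change was 2.54 ± 0.51 (SE; 5.81-fold, edgeR adjusted p = 0.000563). Hba-a1 and Hba-a2 are nearly identical in sequence, so their separate values (3.07 and 2.98) are uncertain. Ighm, the constant region of immunoglobulin M, also rose, by 3.07 ± 0.84 (SE; 8.42-fold, edgeR adjusted p = 0.0059). It was not called without 15 h mice 2 and 3 (edgeR adjusted p = 0.0549) or with the muscle covariate (edgeR adjusted p = 0.147).

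Genes that turn glucose into fat were higher at 5 d, where 16.2% of all genes were called higher. Of 11 tested genes of glucose use and glyceroneogenesis 7 were higher (median 0.96), and of 17 genes of fatty acid and triglyceride synthesis 7 were higher (median 0.96), with none lower in either list. Aldoa, a glycolytic enzyme that muscle also makes in large amounts, read 10.26, 8.61, 9.24, 9.78 and 10.32 at 15 h, 9.99, 11.28, 11.39, 11.44 and 13.76 at 5 d, and 11.60, 12.65, 11.84, 12.19 and 12.58 at 7 d. The groups overlapped at 5 d mouse 1, and the change was 2.38 ± 0.43 (SE; 5.21-fold, edgeR adjusted p = 0.000238). It was 2.03 (edgeR adjusted p = 0.0036) with the muscle covariate. Fasn, fatty acid synthase, read 12.21, 6.79, 9.90, 11.18 and 9.55 at 15 h, 12.63, 13.15, 13.82, 13.91 and 11.54 at 5 d, and 13.60, 14.07, 14.05, 13.70 and 14.01 at 7 d. The 15 h mice spread widely, from mouse 2 at the bottom to mouse 1 within the 5 d range. Its change was 2.44 ± 0.78 (SE; 5.44-fold, edgeR adjusted p = 0.0155), and 1.90 (edgeR adjusted p = 0.128) without 15 h mice 2 and 3. Srebf1, the transcription factor that drives fatty acid synthesis genes, rose by 1.52 (edgeR adjusted p = 0.000843) and was the one gene of the synthesis list called without those mice. With the muscle covariate 10 of 17 synthesis genes and 6 of 11 glucose genes were called higher, and 5 of the 11 glucose genes were so without 15 h mice 2 and 3. Elovl3, an enzyme that elongates fatty acids and is typical of stimulated brown fat, had log2 CPM of 4.02, -1.01, -1.12, 1.72 and 0.60 at 15 h, 4.53, 6.55, 4.66, 4.44 and 5.47 at 5 d, and 7.52, 8.94, 8.68, 8.66 and 8.46 at 7 d. It was higher in each later group with no overlap, and at 5 d it changed by 3.26 ± 0.88 (SE; 9.61-fold, edgeR adjusted p = 0.00532), or 2.59 (edgeR adjusted p = 0.0676) without 15 h mice 2 and 3. Elovl3 overlaps Pitx3 on the other strand, and use of the strand in counting is not stated in the sources used here. Of the 17 thermogenesis genes Cox8b (1.18), Cox7a1 (1.00), Esrra (0.80) and Elovl3 were higher, a share near the 16.2% of all genes. No gene of that list was lower (median 0.27). None of these 4 except Elovl3 was called with the muscle covariate, and none of the 4 without 15 h mice 2 and 3.

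**Figure D2:**
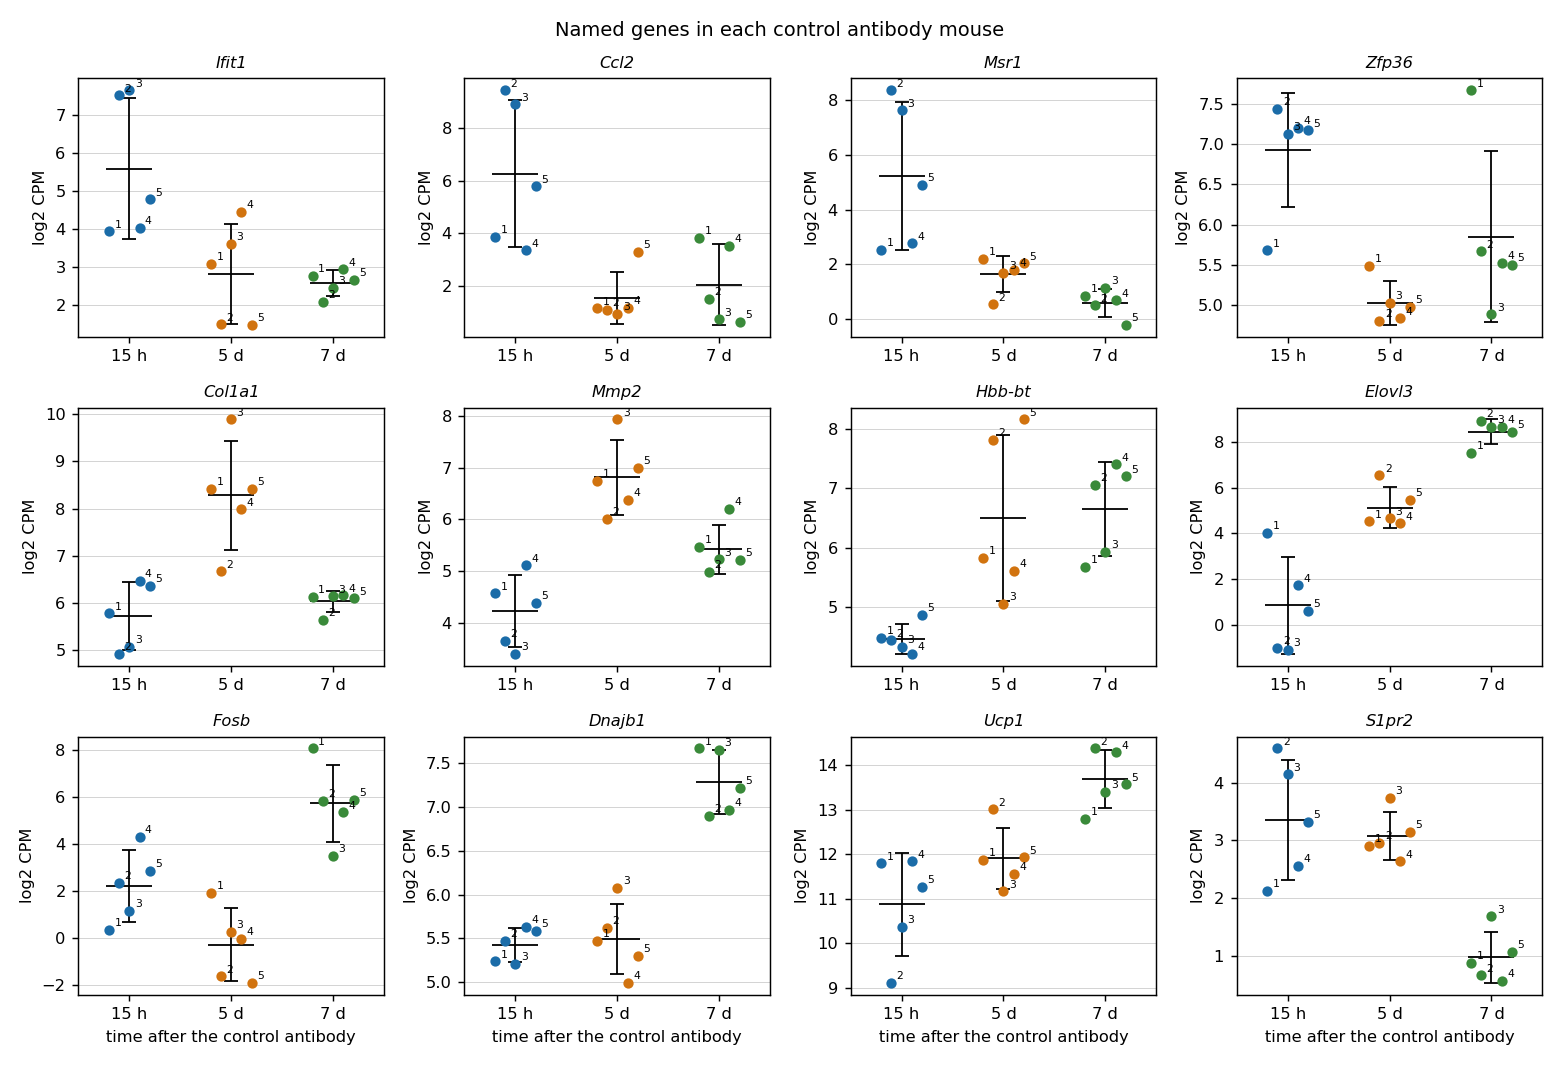
Log2 CPM of 12 named genes in each control antibody mouse. Points are mice, numbered 1 to 5 within a group, and bars are the mean ± SD (n = 5). Elovl3 is higher in each later group without overlap, Col1a1 is highest at 5 d, and Dnajb1 and Fosb are highest at 7 d.

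From 5 d to 7 d, immediate early genes, genes of cholesterol synthesis, Ucp1 and heat shock genes were higher, and fibroblast, macrophage and DNA replication genes were lower. Of 17079 genes, 1559 (9.13%) were called: 804 (4.71%) higher at 7 d and 755 (4.42%) lower, with a median of 0.01. With the muscle score as a covariate 382 (2.24%) were called, 208 (1.22%) higher and 174 (1.02%) lower. Fits of the 10 mice alone called 161 and of the 15 control mice 142 (0 with the muscle score as well), and leaving out 1 mouse gave 512 (without 7 d mouse 2) to 2632 (without 5 d mouse 2). The 5 d and 7 d mice did not overlap in 754 genes (4.41%), 336 (1.97%) higher and 418 (2.45%) lower at 7 d.

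The largest rise among genes named by the rule was that of Fosb (ENSMUSG00000003545, chr7:19302696-19310051), a partner of Fos in the AP-1 factor. Its log2 CPM was 0.36, 2.36, 1.15, 4.32 and 2.87 at 15 h, 1.93, -1.63, 0.26, -0.03 and -1.92 at 5 d, and 8.08, 5.84, 3.51, 5.35 and 5.90 at 7 d. Every 7 d mouse was above every 5 d mouse, and 7 d mouse 1 was highest. It rose by 6.10 ± 1.15 (SE; 68.5-fold, edgeR adjusted p = 0.00219), and by 5.95 (edgeR adjusted p = 0.00773) with the muscle covariate. Of the 17 immediate early genes 6 rose and none fell (median 1.22), against 4.71% of all genes called higher. The 6 were Fosb, Fos (3.23), Egr2 (3.13), Ier3 (3.01), Ier2 (1.31) and Zfp36 (1.18). Fos and Zfp36 were highest in 7 d mouse 1, and their 7 d and 5 d mice overlapped. With the muscle covariate 3 of the 17 were called higher (1.22% of all genes), Fosb, Fos and Ier3. The stress-responsive factor Maff rose by 3.02 ± 0.48 (SE; 8.12-fold, edgeR adjusted p = 0.000764).

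Cholesterol synthesis genes rose in 12 of 22 tested cases with none lower (median 1.09), against 4.71% of all genes called higher. Genes of this pathway are switched on by the factor Srebf2 when cell sterols are low. Sc5d, which acts near the end of the sterol pathway, read 6.75, 5.45, 5.82, 6.16 and 5.46 at 15 h, 5.73, 6.48, 5.89, 5.66 and 5.16 at 5 d, and 7.99, 8.27, 6.99, 6.89 and 7.59 at 7 d. All 7 d mice were above all 5 d mice, and the 15 h mice were near the 5 d level. The change was 1.80 ± 0.33 (SE; 3.49-fold, edgeR adjusted p = 0.00187). Cyp51 (1.75), Pmvk (1.61), Sqle (1.60) and Nsdhl (1.58) were next. With the muscle covariate 5 of the 22 were called. Fatty acid and triglyceride synthesis had 4 of 17 higher (median 1.12), Me1 (1.76), Elovl6 (1.67), Agpat2 (1.58) and Mlxipl (1.16), and none was called with the muscle covariate.

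Ucp1 itself had log2 CPM of 11.80, 9.11, 10.37, 11.84 and 11.27 at 15 h, 11.88, 13.01, 11.17, 11.56 and 11.93 at 5 d, and 12.80, 14.38, 13.40, 14.29 and 13.57 at 7 d. The 7 d mice were the highest group, with 5 d mouse 2 within their range. It rose by 1.75 ± 0.42 (SE; 3.36-fold, edgeR adjusted p = 0.0091), and by 1.60 (edgeR adjusted p = 0.0389) with the muscle covariate, and its 7 d mice lay above every 15 h mouse. Elovl3 rose again, by 3.15 ± 0.86 (SE; 8.89-fold, edgeR adjusted p = 0.0213), or 2.72 (edgeR adjusted p = 0.0576) with the muscle covariate. Ppara, the fatty acid sensor, was lower (-1.43), and the other 14 genes of thermogenesis and brown fat identity were not called (median 0.39). Plin2, which coats lipid droplets, read 9.47, 9.57, 9.53, 9.24 and 8.90 at 15 h, 9.17, 10.04, 9.16, 9.40 and 8.82 at 5 d, and 11.17, 11.54, 10.53, 10.74 and 10.99 at 7 d. The 15 h and 5 d mice were alike in range and every 7 d mouse was above both. The change was 1.66 ± 0.27 (SE; 3.16-fold, edgeR adjusted p = 0.000774). Fgf21, a hormone secreted by stimulated brown fat and by liver, changed by 3.67 ± 0.75 (SE; 12.7-fold, edgeR adjusted p = 0.00378) from a low level. Acsl5, which activates fatty acids, rose by 1.95 ± 0.46 (SE; 3.86-fold, edgeR adjusted p = 0.00911). Ttc25, a protein of motile cilia, read 3.15, 0.42, 1.65, 2.22 and 1.21 at 15 h, 2.09, 4.81, 3.33, 3.96 and 2.68 at 5 d, and 6.72, 7.65, 6.05, 5.73 and 6.89 at 7 d, with all 7 d mice above all others and a change of 3.09 ± 0.71 (SE; 8.5-fold, edgeR adjusted p = 0.00759). The rule also named the long non-coding RNAs Gm32468 (4.26) and 2310069B03Rik (4.02). Gm15241 (3.76) lies antisense to Adgrg2 and cannot be told apart from it without strand. Rims4 (2.44), Marc1 (2.32) and Aspg (1.93) complete the rule's list.

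Heat shock genes rose in 5 of 11 cases (median 1.02), against 4.71% of all genes. Dnajb1, a co-chaperone of Hsp70, had log2 CPM of 5.24, 5.47, 5.21, 5.63 and 5.59 at 15 h, 5.47, 5.62, 6.08, 4.99 and 5.30 at 5 d, and 7.67, 6.90, 7.65, 6.97 and 7.22 at 7 d. Each 7 d mouse was above all 15 h and 5 d mice, and the change was 1.78 ± 0.25 (SE; 3.44-fold, edgeR adjusted p = 0.000246). Hsp90aa1 (1.44), Hsph1 (1.36), Hspa8 (1.02) and Hspd1 (0.67) were the other 4. Of the 5, 3 were called with the muscle covariate.

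Of the 13 protein-coding genes of the mitochondrial genome, 7 were higher at 7 d (median 0.87), after 8 had been lower at 5 d than at 15 h (median -0.66). Of all genes, 4.71% were called higher at 7 d and 20.1% lower at 5 d. mt-Cytb, a subunit of respiratory complex III, read 16.54, 15.64, 15.92, 16.42 and 16.21 at 15 h, 15.61, 16.00, 15.12, 15.79 and 16.09 at 5 d, and 16.60, 16.97, 16.24, 17.30 and 16.19 at 7 d. Every 7 d mouse was above every 5 d mouse, by a narrow margin in mouse 5, and the change was 0.96 ± 0.23 (SE; 1.95-fold, edgeR adjusted p = 0.00883). With the muscle covariate no gene of the list was called higher at 7 d and 5 genes of the list were called lower at 5 d. With length and GC offsets 4 were higher at 7 d (median 0.51) and 3 lower at 5 d (median -0.27), and in the fit of the 15 control mice 0 and 3. Without 15 h mice 2 and 3, 6 were lower at 5 d. Mt-Nd4 and mt-Nd4l overlap, as do mt-Nd5 and mt-Nd6, and their counts may share reads.

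All 8 fibroblast and progenitor markers were lower at 7 d than at 5 d (median -1.87). Col1a1, whose 7 d mice lay close together at the level of 15 h mice, changed by -2.59 ± 0.42 (SE; 6.02-fold, edgeR adjusted p = 0.000789). Fbn1, the fibrillin of elastic fibres, read 4.52, 4.98, 5.36, 5.24 and 5.37 at 15 h, 6.53, 4.50, 6.45, 6.22 and 6.82 at 5 d, and 4.41, 4.02, 4.06, 4.37 and 4.29 at 7 d. Its 7 d mice were below every 5 d mouse, although 5 d mouse 2 was near them, and the change was -2.05 ± 0.31 (SE; 4.15-fold, edgeR adjusted p = 0.000246). Col14a1 (-2.69), Lrrc17 (-2.72), Col6a6 (-2.20), the protease Adamts15 (-1.99) and Pdlim4 (-1.92) were named by the rule. The muscle score was 3.44 ± 5.47 at 7 d against 9.90 ± 3.31 at 5 d (SD, n = 5, exact permutation p = 0.0556). With it as a covariate 5 of the 8 markers were called lower, Col1a1 at -2.13 (edgeR adjusted p = 0.00929).

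Macrophage markers were lower at 7 d in 5 of 8 cases (median -1.63), against 4.42% of all genes. Csf1r, the receptor for the growth factor that keeps macrophages alive, had log2 CPM of 4.61, 6.84, 6.61, 5.24 and 5.47 at 15 h, 6.22, 5.30, 6.95, 5.98 and 6.68 at 5 d, and 4.36, 4.11, 4.41, 4.84 and 4.27 at 7 d. All 7 d mice were below all 5 d mice, and the change was -1.92 ± 0.41 (SE; 3.78-fold, edgeR adjusted p = 0.00531). It was the one marker called with the muscle covariate, at -1.61 (edgeR adjusted p = 0.0402). Adgre1, the F4/80 antigen, changed by -1.95 and Lyz2 by -1.73. Cd209a, a lectin of dendritic cells and macrophages, read 0.91, 3.31, 3.81, 1.93 and 2.43 at 15 h, 2.93, 1.49, 3.47, 1.98 and 3.78 at 5 d, and 0.57, -1.16, -0.59, -1.52 and 0.66 at 7 d. Its 7 d mice were below all 15 h and 5 d mice, and it fell by 3.17 (edgeR adjusted p = 0.00218). Lyz1 (-2.91), a near copy of Lyz2 with which it may share reads, Clec10a (-2.85), a macrophage lectin, Hpse (-2.82), heparanase, and Ciita (-2.13), the master regulator of MHC class II genes, were also named. S1pr2, a receptor for sphingosine 1-phosphate, read 2.13, 4.59, 4.14, 2.56 and 3.32 at 15 h, 2.91, 2.96, 3.74, 2.64 and 3.15 at 5 d, and 0.89, 0.67, 1.69, 0.57 and 1.07 at 7 d. Its 7 d mice lay below all others, and the change was -2.12 ± 0.38 (SE; 4.36-fold, edgeR adjusted p = 0.00159).

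Cell cycle genes were lower in 7 of 21 cases (median -1.03), against 4.42% of all genes. The 7 were Top2a (-1.83), Mki67 (-1.67), Rrm2 (-1.12) and 4 subunits of the replicative helicase. One of these, Mcm3, read 2.23, 3.62, 3.45, 2.35 and 2.83 at 15 h, 2.46, 2.43, 2.35, 2.21 and 2.69 at 5 d, and 1.29, 1.5, 1.53, 1.71 and 1.11 at 7 d. The 7 d mice were below all 5 d and 15 h mice, with a change of -1.03 ± 0.29 (SE; 2.04-fold, edgeR adjusted p = 0.0248). No gene of the list was called with the muscle covariate. None of the 18 interferon genes was called between 5 d and 7 d (median -0.58, against 4.42% of all genes called lower), and none of the 5 red blood cell genes was (median -0.39).

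**Figure D3:**
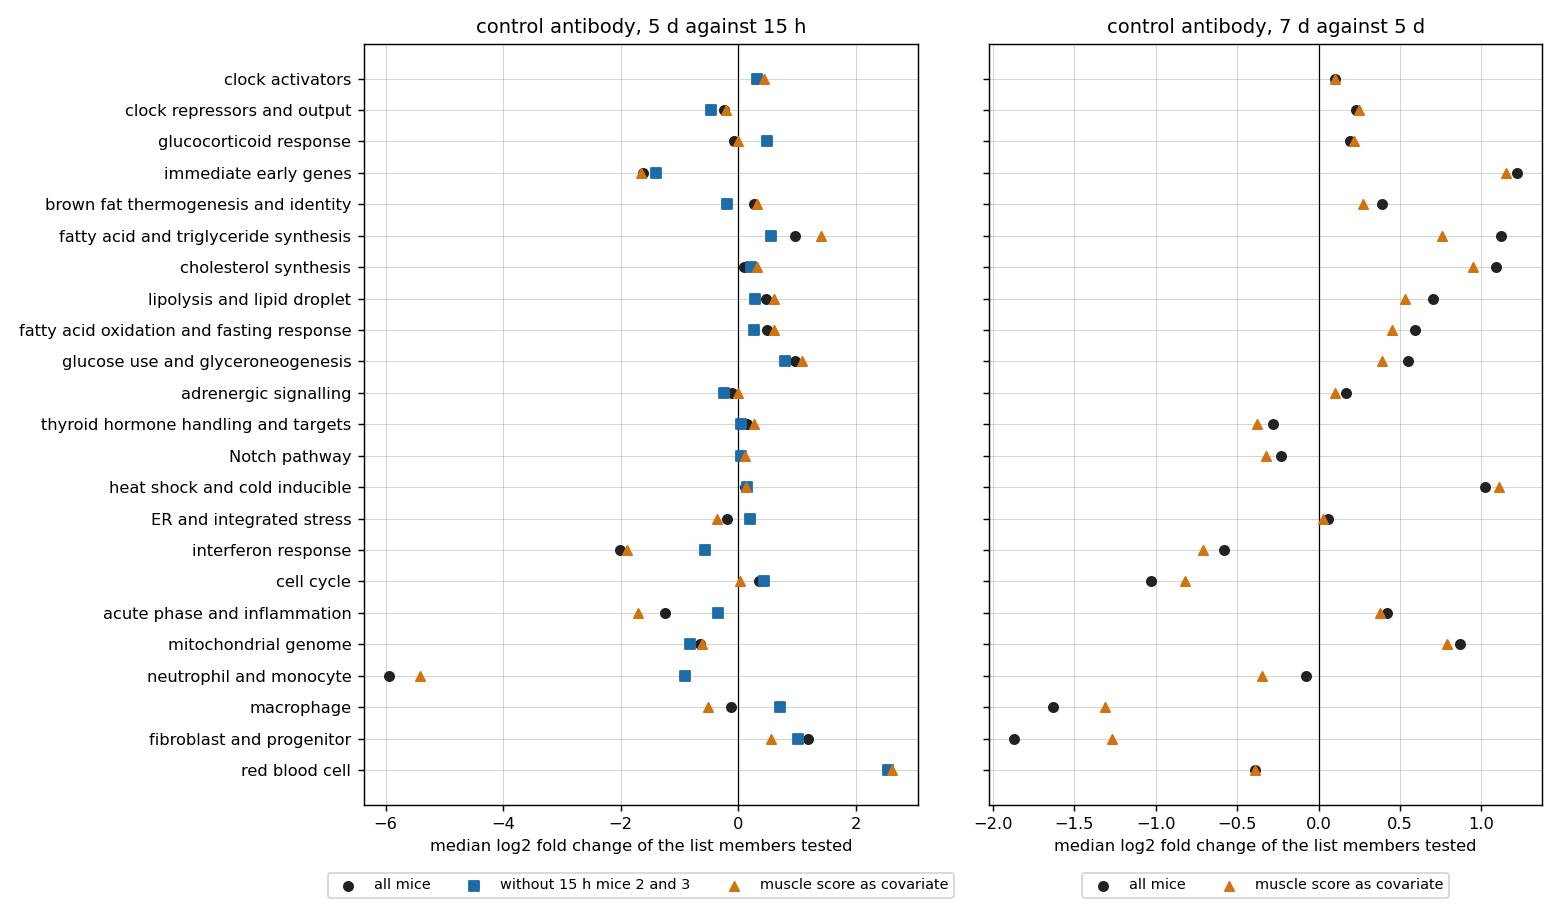
Median log2 fold change of the tested members of 23 gene lists, at 5 d against 15 h (left) and 7 d against 5 d (right), with all mice (circles), without 15 h mice 2 and 3 (squares, left only) and with the muscle score as a covariate (triangles). The neutrophil and monocyte median moves from -5.94 to -0.90 and the interferon median from -2.01 to -0.57 without those mice, while the red blood cell median stays near 2.5. Most genes of the neutrophil and monocyte list are in the myeloid score by which those mice were chosen.

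The net difference over the whole period, 7 d against 15 h, was larger in count than either step: 7698 of 17079 genes (45.1%) were called, 3682 (21.6%) higher at 7 d and 4016 (23.5%) lower, with a median of -0.06, and 4422 (25.9%) were called without 15 h mice 2 and 3. With the muscle covariate 7774 (45.5%) were called, 3720 (21.8%) higher and 4054 (23.7%) lower. The groups did not overlap in 4371 genes (25.6%), 2337 (13.7%) higher and 2034 (11.9%) lower. Genes of lipid synthesis were higher in most cases. Of 17 fatty acid and triglyceride synthesis genes 15 were higher (median 2.30), and 10 were so without 15 h mice 2 and 3 (14.9% of all genes). Fasn at 7 d was tightly grouped and above every 15 h mouse, a change of 3.10 ± 0.80 (SE; 8.6-fold, edgeR adjusted p = 0.00215). Agpat2 (3.31), Slc25a1 (2.83), the carrier that exports citrate for synthesis, and Acss2 (2.75) were the other large changes. Of 22 cholesterol synthesis genes 16 were higher (median 1.06), and 15 without those mice. Elovl3 changed by 6.42 ± 1.01 (SE; 85.4-fold, edgeR adjusted p = 1.97e-05) and Ucp1 by 2.63 ± 0.43 (SE; 6.17-fold, edgeR adjusted p = 2.53e-05). Without 15 h mice 2 and 3 these were 5.73 (edgeR adjusted p = 0.00116) and 2.15 (edgeR adjusted p = 0.00153), and Fasn was at 2.56 (edgeR adjusted p = 0.0331).

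Genes of fat oxidation and release were also higher at 7 d than at 15 h, where 21.6% of all genes were called higher and 23.5% lower. Of 16 genes of fatty acid oxidation and the fasting response 11 were higher and 2 lower (median 1.03), and of 11 genes of lipolysis and the lipid droplet 8 were higher and 1 lower (median 1.19). Without 15 h mice 2 and 3 the first list had 10 higher and 1 lower (median 0.74) and the second 6 higher and 1 lower (median 0.89). G0s2, an inhibitor of the lipase Pnpla2, changed by 2.59 ± 0.44 (SE; 6.04-fold, edgeR adjusted p = 3.39e-05), and by 2.54 (edgeR adjusted p = 0.00211) without those mice, and Pnpla2 itself by 1.19. Glucose use had 8 of 11 higher and 1, the glucose transporter Slc2a1, lower (median 1.48). That fall of Slc2a1 (-1.54) was 0.16 without 15 h mice 2 and 3. Of 18 interferon genes 13 were lower and Ifi27l2a higher (median -2.87). Ifi27l2a was at 1.49, and it was not called without 15 h mice 2 and 3, at 1.48 (edgeR adjusted p = 0.0619), or with length and GC offsets, at 0.43 (edgeR adjusted p = 0.323). Leaving out 15 h mice 2 and 3, 4 were lower (11.0% of all genes), Mx1 at -2.66 (edgeR adjusted p = 0.0168), Oasl2 at -1.96 (edgeR adjusted p = 0.0204), Ifi44 at -1.93 (edgeR adjusted p = 0.0302) and Rsad2 at -1.52 (edgeR adjusted p = 0.0183). Ccr2 read 4.21, 9.28, 8.45, 4.70 and 6.59 at 15 h, 5.04, 3.31, 4.23, 3.86 and 3.61 at 5 d, and 2.82, 1.45, 0.90, 2.5 and 1.55 at 7 d. All 7 d mice were below all 15 h and 5 d mice, and the net change was -5.82 ± 0.69 (SE; 56.4-fold, edgeR adjusted p = 8.85e-07). At 15 h mice 2 and 3 were the highest, and without them the change was -3.57 (edgeR adjusted p = 2.20e-05). The 7 neutrophil and monocyte markers were all lower at 7 d (median -5.82), and 2 were so without those mice (median -0.26). Of 6 pericyte and smooth muscle markers the contractile genes Acta2 (1.95), Tagln (2.05) and Myh11 (2.05) were higher at 7 d, and Rgs5, Cspg4 and Pdgfrb were not called. Myh11 was not called without 15 h mice 2 and 3 (edgeR adjusted p = 0.16) or in the fit of the 15 control mice (edgeR adjusted p = 0.0569). The counts at 7 d against 15 h of the lists named here (fatty acid and cholesterol synthesis, oxidation, lipolysis, glucose use, interferon, neutrophil and monocyte, and smooth muscle) were the same with and without the muscle covariate. The mean muscle score was 3.44 at 7 d and 2.49 at 15 h (exact permutation p = 0.635). With means this close the covariate could change this comparison little.

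Few clock genes were called at 5 d, 1 of 7 activators and 1 of 12 repressors and output genes, against 36.4% of all genes. From 5 d to 7 d the counts were 1 and 2, against 9.13% of all genes. At 7 d against 15 h, 3 of the 7 activators were higher and 2 lower. Of the 12 repressors and output genes 2 were higher and none lower, where 45.1% of all genes were called. Without 15 h mice 2 and 3, 1 activator was higher and 1 lower, and 1 of the 12 was higher (25.9% of all genes called). Of 7 activators Clock was lower at 5 d than at 15 h and Npas2 (-1.40) lower at 7 d than at 5 d. Of 12 repressors and output genes Nr1d2 (-0.96) was lower at 5 d, and Bhlhe40 and Ciart (1.62) were higher at 7 d. Of these 5 genes Clock and Bhlhe40 were also called with the muscle covariate. Clock, the partner of Arntl in the core activator, read 6.96, 6.67, 6.75, 7.11 and 6.89 at 15 h, 6.83, 4.92, 5.55, 6.38 and 4.79 at 5 d, and 6.67, 6.04, 6.07, 4.98 and 5.84 at 7 d. The 15 h mice were close together and the later mice spread below them, apart from 5 d mouse 1 within their range and 7 d mouse 1 at its lower edge. The change was -0.97 ± 0.29 (SE; 1.96-fold, edgeR adjusted p = 0.0102), and -1.07 (edgeR adjusted p = 0.034) without 15 h mice 2 and 3. With length and GC offsets it was -0.30 (edgeR adjusted p = 0.107). Nr1d2 was not called without those mice (edgeR adjusted p = 0.0537). Bhlhe40, a repressor of clock output that also answers to other signals, read 6.16, 6.68, 6.63, 5.89 and 5.70 at 15 h, 5.43, 5.86, 6.09, 6.01 and 5.07 at 5 d, and 7.06, 7.26, 7.18, 7.30 and 8.05 at 7 d. All 7 d mice were above all others, and it rose by 1.68 ± 0.38 (SE; 3.21-fold, edgeR adjusted p = 0.00724). The glucocorticoid list gave 1 higher (Tsc22d3) and 1 lower of 12 at 5 d, against 16.2% and 20.1% of all genes. From 5 d to 7 d 2 were lower (4.42% of all genes), Fkbp5 (-1.87) and Tsc22d3 (-0.97), neither called with the muscle covariate. Zbtb16, a glucocorticoid-induced transcription factor, read 6.40, 6.64, 6.39, 5.87 and 6.24 at 15 h, 5.30, 2.25, 4.26, 5.90 and 4.10 at 5 d, and 4.10, 2.66, 3.36, 2.97 and 3.48 at 7 d. The 15 h mice were high and close together, and 5 d mouse 4 alone overlapped them. It fell by 1.52 at 5 d (edgeR adjusted p = 0.0195, and 0.103 without 15 h mice 2 and 3) and by 2.94 over the whole period (edgeR adjusted p = 7.45e-05).

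Adrb3, the main receptor through which noradrenaline stimulates brown fat, read 7.43, 5.50, 6.16, 7.02 and 7.52 at 15 h, 6.72, 8.16, 8.42, 8.05 and 7.91 at 5 d, and 8.92, 8.56, 8.66, 8.78 and 8.79 at 7 d. The 7 d mice were nearly level and above every 15 h mouse, with a net change of 1.83 ± 0.36 (SE; 3.57-fold, edgeR adjusted p = 0.000163), or 1.41 (edgeR adjusted p = 0.00954) without 15 h mice 2 and 3. At 5 d against 15 h 36.4% of all genes were called, a larger share than in the adrenergic, thyroid hormone or Notch list. Of 13 adrenergic genes tested, Adrb3 (1.04) was higher and 2 were lower, among them the cAMP-responsive factor Creb1 (-1.12). None of the 13 was called from 5 d to 7 d, against 9.13% of all genes. Adrb3 and Creb1 were also called with the muscle covariate, and Adrb3 was not called at 5 d without 15 h mice 2 and 3 (edgeR adjusted p = 0.25). Creb1 moved to -0.29 (edgeR adjusted p = 0.0301) with length and GC offsets. Of 10 thyroid hormone genes Thrb (-1.17), a hormone receptor, was lower and Rxra (0.46), its partner, higher at 5 d, and Rxra was called neither with the muscle covariate nor without 15 h mice 2 and 3. Of 14 Notch pathway genes the receptor Notch2 (-1.05) and the nuclear factor Rbpj (-1.24) were lower and the target Hey1 was higher at 5 d. Neither list had a called gene from 5 d to 7 d. Hey1 read 1.43, 1.46, 1.5, 1.06 and 1.74 at 15 h, 1.56, 2.39, 2.48, 1.84 and 2.85 at 5 d, and 2.07, 3.19, 3.54, 3.04 and 3.27 at 7 d, with 5 d mouse 1 within the 15 h range, all 7 d mice above every 15 h mouse, and a net change of 1.67 ± 0.28 (SE; 3.19-fold, edgeR adjusted p = 3.15e-05), or 1.70 (edgeR adjusted p = 0.00136) without 15 h mice 2 and 3. Without those mice no Notch gene was called at 5 d, and with the muscle covariate Notch2 and Rbpj were called and Hey1 was not (edgeR adjusted p = 0.0568).

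The Jag antibody mice, which share no mouse with the control group, give the same 2 intervals a second time. At 5 d against 15 h, 2470 genes (14.5%) were called in them, 1404 (8.22%) higher and 1066 (6.24%) lower, and 1515 genes were called in the same direction in both antibodies, which is 24.4% of the control calls and 61.3% of the Jag antibody calls. From 5 d to 7 d, 562 genes (3.29%) were called, 343 (2.01%) higher and 219 (1.28%) lower, and 158 were called in the same direction in both, 10.1% of the control calls and 28.1% of the Jag antibody calls. Over all tested genes the log2 fold changes of the 2 antibodies had a Spearman correlation of 0.52 at 5 d against 15 h. It was only 0.15 from 5 d to 7 d. The sign was shared by 73.3% and 57.0% of all genes. The interferon list had 15 of 18 lower at 5 d in the Jag antibody mice (median -2.15), Ifit1 at -3.78 (edgeR adjusted p = 0.00365). The acute phase list had 8 of 14 lower (median -2.62), the neutrophil and monocyte list 4 of 7 lower (median -3.21), and the red blood cell list 4 of 5 higher (median 2.22). In control mice without 15 h mice 2 and 3, the medians were -0.57 (interferon), -0.35 (acute phase), -0.90 (neutrophil and monocyte) and 2.55 (red blood cell). The Jag antibody changes were not fitted with mice left out. Fasn was at -0.80 (edgeR adjusted p = 0.474) at 5 d in Jag antibody mice and at 2.76 (edgeR adjusted p = 0.0438) from 5 d to 7 d. Fosb from 5 d to 7 d was at 5.42 (edgeR adjusted p = 0.00868) and Ttc25 at 4.12 (edgeR adjusted p = 0.00245), against 6.10 and 3.09 in control mice.

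The difference between the antibodies in these time changes was tested as an interaction. It was called for 17 genes (0.0995%) at 5 d against 15 h, where the control change was the higher in 13 (0.0761%) and the lower in 4 (0.0234%). From 5 d to 7 d it was called for 220 genes (1.29%), with the control change higher in 21 (0.123%) and lower in 199 (1.17%). Myc is among the 17: it fell in control mice and had 0.80 (edgeR adjusted p = 0.113) in Jag antibody mice, a difference of -2.51 (edgeR adjusted p = 0.0312). The skeletal muscle list, in which no gene was called in either antibody, had medians of 4.25 and -3.28 over the 2 intervals in control mice, and of -6.04 and 9.75 in Jag antibody mice. No interaction was called in either interval once the muscle score entered the fit (edgeR, with 1262 and 1238 genes at an unadjusted p under 0.05). Col1a1 at 5 d was at 0.25 (edgeR adjusted p = 0.707) in Jag antibody mice, and its interaction was 2.53 (edgeR adjusted p = 0.0591). For Elovl3 at 5 d, higher in control mice and at -1.12 (edgeR adjusted p = 0.349) in Jag antibody mice, the interaction was 4.38 (edgeR adjusted p = 0.0944). Dnajb1 from 5 d to 7 d was at 0.48 (edgeR adjusted p = 0.31) in Jag antibody mice, with an interaction of 1.30 (edgeR adjusted p = 0.0504).

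**Figure D4:**
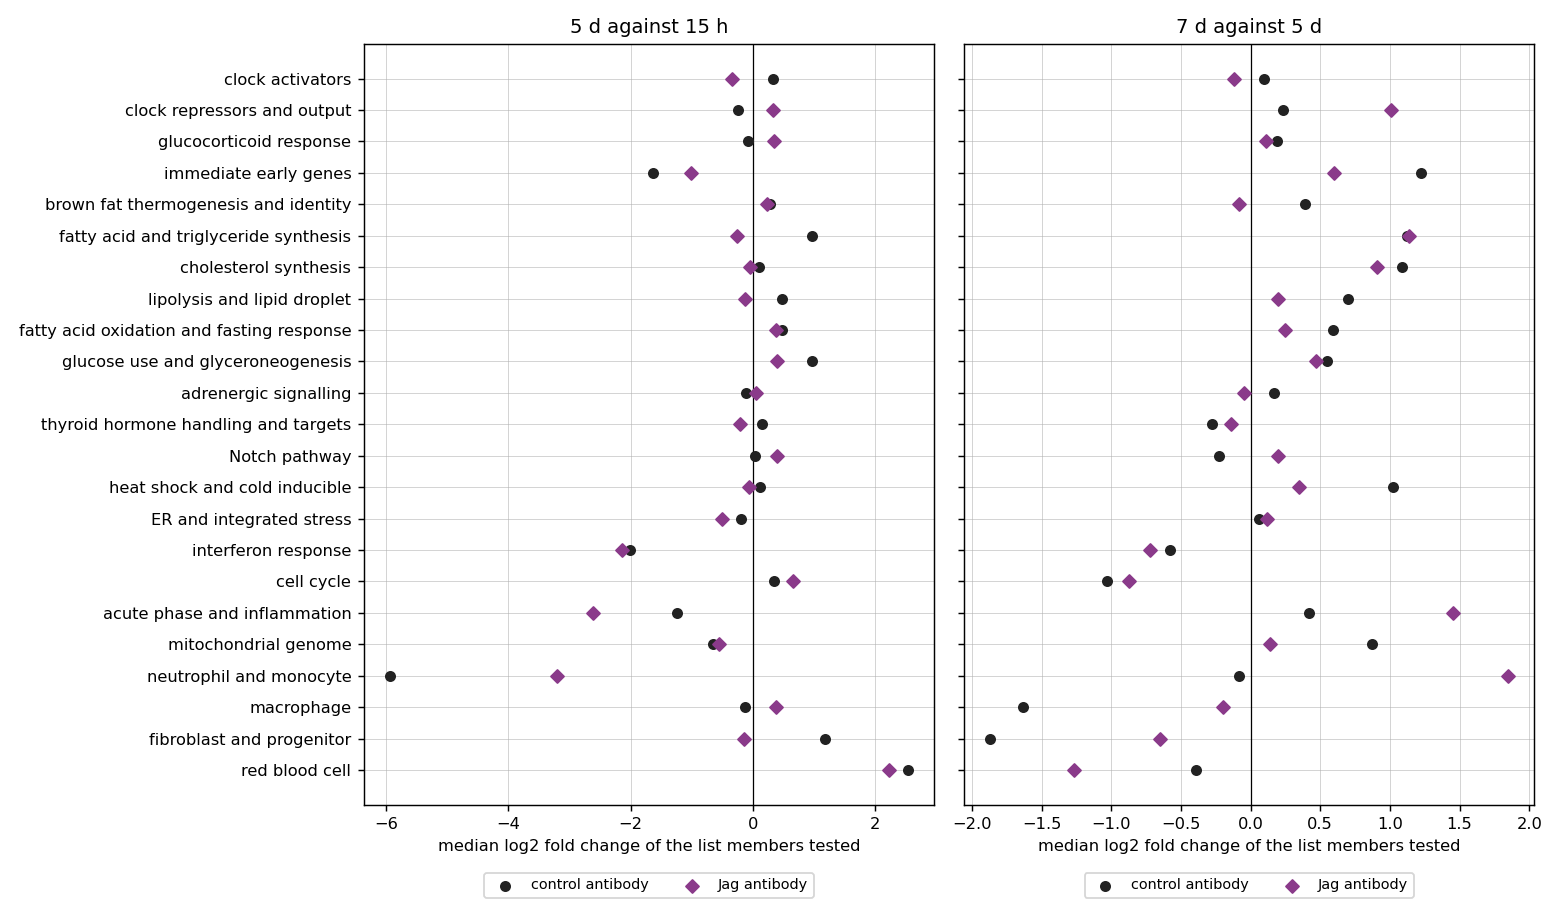
Median log2 fold change of the tested members of 23 gene lists at 5 d against 15 h (left) and 7 d against 5 d (right) in control antibody mice (circles) and Jag antibody mice (diamonds). The interferon medians at 5 d are -2.01 and -2.15, and the fatty acid synthesis medians are 0.96 and -0.26 at 5 d and 1.12 and 1.14 at 7 d. All mice are used here, and without 15 h mice 2 and 3 the control interferon median is -0.57.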

How the data were processed

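Brown fat RNA from 15 control antibody mice was sequenced with the other 25 mice of the series as single-end 50 bp reads, per the labels' protocols. The authors deposited gene counts and FPKM for all 40 libraries. GSNAP and limma are named in the submitters' processing notes, without versions, and the counter, annotation and use of strand are not given in the sources used here. Genes without a symbol in GENCODE M21 on GRCm38 stayed in the fit, and 52403 of 52636 had one.

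Counts were fitted with edgeR 4.0.16 (R 4.3.3) over all 40 libraries, with 8 groups, TMM scaling, the filterByExpr filter (17079 genes kept), robust quasi-likelihood F tests and Benjamini-Hochberg adjustment over all genes at 0.05. The standard error of a log2 fold change was taken as its size divided by the square root of F. The deposited FPKM values served 1 alternative, limma 3.58.1 on log2(FPKM + 1). DESeq2 1.42.0, RLE size factors, no filter, length and GC offsets, fewer samples, a muscle score covariate, a replicate block and each mouse left out were the others. The fit without 15 h mice 2 and 3 and the 15-mouse fit with the muscle score were chosen after seeing the data. Single measures per library were compared by exact permutation, two-sided, over all 252 arrangements of 5 against 5.

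The members and gene lists were chosen with earlier results of these data known. Named genes are, per comparison and direction, up to 6 with the largest change among called genes whose groups do not overlap and whose mean log2 CPM is 1 or more, up to 6 more that are also called with the muscle covariate and are in no marker list, and members of 32 fixed lists by largest called change. Genes given with values for every mouse were picked from these after their values were seen, as were the 4 promoter motifs and the promoters shown. Labels do not say whether mice were housed or collected together, so the p-values do not cover effects shared by mice kept or collected together. The edgeR p-values of the main fit use the spread between mice within groups, pooled over all 8 groups. They do not measure the spread of the compared mice alone. Pairs of libraries within a group differed by far more than sampling noise (chi-square per degree of freedom 27.8 to 808). On counts simulated for 5 d against 15 h with 17079 genes, the fit recovered 28 of 100 genes changed 2-fold and 93 of 100 changed 4-fold, with 4 false calls among 125. Genes were drawn independently there, and far fewer were changed than the 6214 called in the data. The simulation therefore gives neither the power nor the error rate of the real comparison.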

Additional observations from a re-analysis of the deposited data

Results flagged for a closer look

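In 7 of 126 groups of 5 mice checked for the genes given per mouse, 1 mouse stood apart from the other 4 by Dixon's ratio (critical value 0.71), and chance gives about 1 in 20 groups. Ccl2 was highest in 5 d mouse 5 at a log2 CPM of 3.30, with the next mouse at 1.19. Zfp36 was lowest in 15 h mouse 1 at 5.68 (next 7.13) and highest in 7 d mouse 1 at 7.67 (next 5.67). Myc was highest in that same 7 d mouse at 4.23 (next 2.22). Col1a1 was lowest in 7 d mouse 2 at 5.64 (next 6.10). Fbn1 was lowest in 5 d mouse 2 at 4.50 (next 6.22), and Bhlhe40 was highest in 7 d mouse 5 at 8.05 (next 7.30).

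Time changes that differed between the control and the Jag antibody by edgeR's interaction test numbered 17 genes at 5 d against 15 h and 220 genes at 7 d against 5 d. Among the genes of the lists, Myc differed by -2.51 on the log2 scale at 5 d against 15 h (edgeR adjusted p = 0.0312), and by -2.26 with the muscle score as a covariate (edgeR adjusted p = 0.149).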

How the results depend on the processing

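Calls at 5 d against 15 h numbered 6214 in all 40 libraries, 1979 without 15 h mice 2 and 3, 1863 in the 15 control mice alone, 3 in those with the muscle score as a covariate and 0 in the 10 mice of the comparison. At 7 d against 5 d, 1559 became 382 with the muscle covariate, 818 without a filter, 2448 with length and GC offsets and a replicate block, 142 in the 15 mice, 0 in those with the muscle covariate (2042 at an unadjusted p under 0.05) and 161 in the 10 mice. At 7 d against 15 h, 7698 became 4422 without 15 h mice 2 and 3, 4889 in the 15 mice and 4471 in those with the muscle covariate. Length and GC offsets gave 4589 calls at 5 d against 15 h, 2291 at 7 d against 5 d and 7192 at 7 d against 15 h. Of the main calls, 3175 of 6214, 1268 of 1559 and 5518 of 7698 were called there in the same direction. The share of higher calls at 5 d against 15 h was 44.6%, and 53.6% without a filter. At 7 d against 5 d it was 51.6% and became 62.6% with length and GC offsets, 34.5% without a filter, 37.9% in the 10 mice and 38.0% in the 15. At 7 d against 15 h it was 47.8%, and 57.4% without 15 h mice 2 and 3. Leaving out 1 mouse gave 4317 to 7623, 512 to 2632 and 6317 to 7987 calls. The counts that moved over 1.5 times were those at 7 d against 5 d without 5 d mouse 2 (2632), 5 d mouse 3 (556) and 7 d mouse 2 (512).

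The 17 interactions at 5 d against 15 h became 9 without 15 h mice 2 and 3, 498 by DESeq2, 118 with length and GC offsets, 140 with those and a replicate block, 11 by limma, 6 without a filter, 2 in the groups concerned, 51 with the block and 0 with the muscle covariate. The 220 at 7 d against 5 d became 964 by DESeq2, 396 with offsets and block, 15 by limma, 63 without a filter, 2 in the groups concerned, 371 with the block and 0 with the muscle covariate. With 1 mouse left out they were 2 to 186 and 1 to 951, and 12 and 17 of 20 mice moved them over 1.5 times. The cause was not tested.

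Of named genes, those that changed direction without 15 h mice 2 and 3 were Socs3 (0.57), Cd68 (0.17), Lyz2 (0.22) and S100a8 (1.85) at 5 d against 15 h, and Slc2a1 (0.16), S100a9 (0.44) and Retnlg (2.33) at 7 d against 15 h. Retnlg also did so without 15 h mouse 2 (0.80), and its values with 1 mouse left out ran from -4.07 to 0.80. Of 144 named list and rule genes called at 5 d against 15 h, 84 kept their direction but were no longer called without those mice and 34 with the muscle covariate. Of 102 called at 7 d against 5 d, 57 were not called with the muscle covariate.

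Mice share replicate numbers across groups, and the numbers did not pair them: correlations of same-numbered mice ran from -0.052 to 0.375 between 15 h and 5 d and from -0.364 to 0.550 between 5 d and 7 d, and not every mouse correlated best with its own number. The replicate block gave 5939, 1770 and 7524 calls. In simulated counts with 100 genes changed 2-fold and 100 changed 4-fold, the 2-fold changes were mostly missed. That simulation had 125 calls, against 6214 in the data at 5 d against 15 h. It therefore does not measure the power or error rate of the real comparison.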

Other observations

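Genes of mast cells, tissue cells that store proteases in granules, were chosen after their values were seen and are given as values only. The mast cell protease Mcpt4 had a mean log2 CPM of 1.75 ± 0.76 at 15 h, 4.26 ± 1.16 at 5 d and 2.09 ± 1.25 at 7 d (SD, n = 5). Cpa3, their carboxypeptidase, was at 1.91 ± 0.82, 3.75 ± 1.09 and 1.40 ± 1.05. Tpsb2, a tryptase, was at 1.91 ± 0.64, 4.08 ± 1.42 and 2.04 ± 1.20, and Cma1, a chymase, at 1.32 ± 0.55, 3.80 ± 1.35 and 1.67 ± 1.54. Kit, the growth factor receptor of mast cells, which other cells make too, had its lowest mean at 5 d, at 4.46 ± 0.21, 4.02 ± 0.91 and 4.90 ± 1.15. The median log2 fold change of the 5 genes was 2.66 at 5 d against 15 h and -2.19 at 7 d against 5 d, and 0.84 and -0.85 with the muscle score as a covariate.

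The MHC class II genes, which present antigen on dendritic cells, macrophages and B cells, were chosen the same way. H2-Ab1 was at 5.85 ± 0.57, 7.15 ± 0.59 and 5.80 ± 0.39, and H2-Eb1 at 6.05 ± 0.40, 7.51 ± 0.45 and 6.43 ± 0.39. Cd74, their invariant chain, was at 7.48 ± 0.69, 8.53 ± 0.37 and 7.01 ± 0.42, and H2-Aa at 6.95 ± 0.60, 8.01 ± 0.39 and 6.79 ± 0.61. Ciita, which switches these genes on, had its highest mean at 15 h, at 2.41 ± 1.04, 2.12 ± 1.07 and 0.30 ± 0.37. The median of the 5 genes was 0.99 and -1.41 over the same intervals, and 0.78 and -1.25 with the covariate. The 4 proteases and the other 4 MHC class II genes were highest at 5 d, where the skeletal muscle score was also highest.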
